A study of Mus musculus with 105 samples.

Results

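TXdXicCast is a female mouse embryonic stem cell (mESC) line that carries a deletion of the X inactivation center (Xic) on its Cast X chromosome, and its bulk RNA at day 4 of differentiation was compared with its RNA at day 1. The comparison took the columns of this line for days 1 and 4 in the count table of the deletion lines and every gene of that table except the spike-in sequences. It holds 6 of the 105 samples of the series, 3 replicates per day, and 52016 genes, of which 19885 had enough counts to be tested. The line is 1 clone derived from TX1072, whose X chromosomes come from the B6 and Cast strains (F1 hybrid). TX1072 was engineered so that doxycycline can induce Xist from its B6 allele, by way of rtTA expressed from Rosa26. TXdXicCast keeps both insertions, whereas TXdXicB6, in which the B6 copy of the Xic is deleted, keeps rtTA without the inducible Xist allele. In TXdXicCast the Cast X lacks chrX:103182257-103955698 (mm10), so that only the B6 chromosome carries Xist. Cells were moved from serum-containing 2i/Lif medium to medium with less serum and without inhibitors and Lif, on fibronectin. They were collected after 1, 2, 3 and 4 days. Day 1 was taken as the base because the RNA of day 0 of this line was degraded and its library preparation had been adapted, with 0.135% to 0.32% of counts on mitochondrial genes at day 0 against 1.56% to 1.96% at day 1. The 6 libraries held 32653060, 22358886 and 27003760 counts in replicates 1 to 3 at day 1, and 52089996, 21539045 and 31405553 counts at day 4. For comparison, the matching libraries of TXdXicB6, 1 clone with the deletion on the B6 X, and of TX1072 without a deletion were used, with 3 replicates per day each.

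mESCs in 2i/Lif represent the naive pluripotent state of the early epiblast. When the inhibitors and Lif are withdrawn, the naive transcription factors are shut down, the cells pass through a formative state, and genes of the germ layers follow under the control of FGF, Nodal, Wnt and BMP signals. In female cells the same exit from naive pluripotency permits upregulation of Xist, a noncoding RNA that acts in cis to inactivate an X chromosome.

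Between day 1 and day 4 18 of 20 naive pluripotency genes fell, 10 of 15 primitive streak genes and 16 of 19 genes of the smooth muscle and actin cytoskeleton list rose, as did the keratin genes Krt8 and Krt18, and genes of cytosolic ribosomal proteins did not pass the test. Levels are given as CPM, read counts scaled to a common library size with TMM factors from autosomal genes. Changes are log2 fold changes of day 4 over day 1 from the edgeR quasi-likelihood fit. Their standard error (SE) was derived as the absolute log2 change divided by the square root of the F statistic of its test. For genes with few counts on a day it is approximate. A gene was called at a Benjamini-Hochberg adjusted p of 0.05. Of the 19885 tested genes, 11817 were called (59.4%), of which 5793 rose (29.1% of tested genes) and 6024 fell (30.3%). At least 2-fold changes were found for 3796 of the genes that rose and 2867 of those that fell, and at least 8-fold changes for 985 and 714. The median log2 change over all tested genes was -0.02. For 12983 of the 19885 genes (65.3%) the 3 libraries of day 1 did not overlap with those of day 4. Among called genes this held for 11409 of 11817 (96.5%), so that lack of overlap adds little to a call. In bulk RNA, fewer cells of a type and less RNA per cell cannot be told apart.

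The 12 libraries of days 1 to 4 were ordered by day along the first principal component of the log2 CPM values of the 2000 most variable genes, which held 77.8% of the variance. Day 1 lay between -85.6 and -83.69 on this axis and day 4 between 60.98 and 73.77. Replicate 3 was ahead of the other replicates on the first component at days 2, 3 and 4, with -9.41 against -24.36 and -23.76 at day 2, 52.48 against 31.93 and 29.98 at day 3, and 73.77 against 60.98 and 61.98 at day 4. On the second component, with 13.2% of the variance, day 4 replicate 3 lay at 34.84 and the other libraries of day 4 at 17.84 and 18.11. The share of mitochondrial counts did not set this library apart, with 1.68%, 1.86% and 1.74% in replicates 1 to 3 at day 4.

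**Figure D1:**
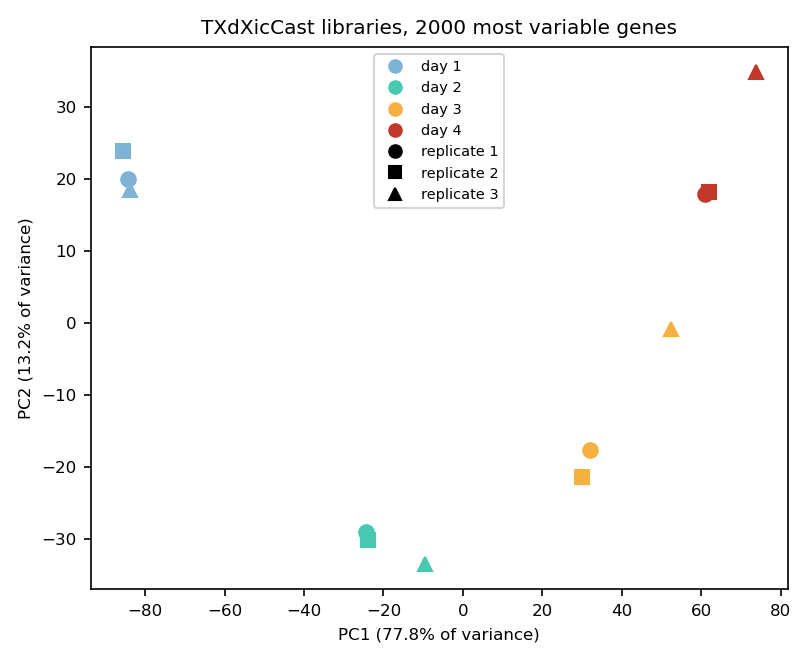
Principal components of log2 CPM in the 12 TXdXicCast libraries of days 1 to 4, with the first component on the x axis (77.8% of variance) and the second on the y axis (13.2%). Each point is a library, and replicate 3 lies to the right of replicates 1 and 2 at days 2, 3 and 4.

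The number of called genes decreased with each daily step. From day 1 to day 2, 7161 genes were called (36.0%), 3492 higher (17.6%) and 3669 lower (18.5%). From day 2 to day 3, 5449 genes were called (27.4%), 2875 higher (14.5%) and 2574 lower (12.9%). From day 3 to day 4, 3798 genes were called (19.1%), 2007 higher (10.1%) and 1791 lower (9.01%), and 1857 were called without day 4 replicate 3. The first and the last step share no library. Of the genes that rose in the first step, 523 fell in the last, which is 15.0% of the former and 29.2% of the genes that fell in the last step. Of the genes that fell in the first step, 633 rose in the last (17.3% and 31.5%). Movement in a single direction in both steps was found for 440 genes that rose (12.6% of the first and 21.9% of the last step) and 300 genes that fell (8.18% and 16.8%).

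Naive pluripotency genes were mostly lower at day 4. Of 20 measured members 18 fell, 1 rose and 1 was not called, and their median log2 change was -2.51. The nuclear receptor gene Nr0b1 (Dax1; chrX:86191764-86195947) had 297, 307 and 279 CPM in replicates 1 to 3 at day 1 and 6.78, 4.89 and 2.88 CPM at day 4. All day 4 libraries lay far below those of day 1, a log2 change of -5.90 (SE 0.45, adjusted p = 9.5e-12). Esrrb (chr12:86361117-86521628), an orphan nuclear receptor of the naive network, decreased from 561, 555 and 444 CPM to 79.8, 65.2 and 45.8 CPM, again without overlap (log2 change -3.03, SE 0.26). Klf4, a Krüppel-like factor downstream of Lif, fell by 3.04 on the log2 scale, Tcl1, a coactivator of Akt, by 3.09, and Jam2, a junctional adhesion molecule, by 4.14. Dppa3 was the member that rose, from 4.11, 3.55 and 4.78 CPM to 22.7, 27.2 and 15.4 CPM (log2 change 2.38, adjusted p = 1.2e-07). Sox15 was not called, at 4.25 and 4.99 mean CPM.

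Nanog, the homeobox factor of the naive epiblast, followed another course than Nr0b1 and Esrrb. It had 306, 291 and 209 CPM at day 1 and 207, 200.4 and 212 CPM at day 4, so that the groups overlapped and the log2 change was -0.38 (SE 0.13, adjusted p = 0.013). The call did not hold without day 1 replicate 1 (adjusted p = 0.17), day 1 replicate 2 (0.061) or day 4 replicate 2 (0.079). In between, mean Nanog was 64.0 ± 8.09 CPM at day 2 and 121 ± 12.2 CPM at day 3 (SD, n = 3). Esrrb, by contrast, had reached 87.8 ± 36.2 CPM at day 2 and stayed at 65.2 ± 19 CPM at day 3 and 63.6 CPM at day 4.

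Core pluripotency genes, which are shared between naive and primed cells, were reduced less strongly, with 12 of 14 members lower, 2 higher and a median log2 change of -1.02. Pou5f1 (Oct4) had 1105, 1186 and 1115 CPM at day 1 and 529.5, 559.7 and 411 CPM at day 4 (log2 change -1.18, SE 0.11). Sox2, its partner on composite binding sites, went from 285, 254 and 247 CPM to 87.1, 66.6 and 42.0 CPM (log2 change -2.0, SE 0.21). The libraries of both genes were separated by day, and replicate 3 was the lowest at day 4 in each. Utf1, a chromatin-associated factor of pluripotent cells, fell by 1.50 on the log2 scale, Dppa2 by 1.95 and Dppa5a by 1.35. The 2 members that rose were the RNA-binding proteins Lin28a (log2 change 0.43) and Lin28b (1.25), which block maturation of let-7.

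Formative and primed epiblast genes moved in both directions, with 6 of 17 higher, 8 lower and a median of -0.18. For all tested genes the shares were 29.1% higher and 30.3% lower. Fgf5, the ligand used as the classical marker of the postimplantation epiblast, had 17.7, 17.8 and 22.6 CPM at day 1 and 129, 106 and 126 CPM at day 4. This increase of 6.21-fold (log2 change 2.64, SE 0.12, adjusted p = 9.8e-16) proceeded through 50.6 CPM at day 2 and 99.5 CPM at day 3. Otx2, a homeobox factor of the formative state, fell by 0.89 on the log2 scale from day 1, Foxd3 by 2.76, Lef1 by 2.65 and Tcf15, a basic helix-loop-helix factor of cells leaving the naive state, by 4.05. Dnmt3b (584 CPM at day 4), Zic2 and Zic5 were not called.

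The DNA methylation machinery was among the groups in which the daily series differed from the comparison of its ends. Mean Dnmt3a, a de novo methyltransferase, was 904 ± 46.9 CPM at day 2 and 376 ± 135 CPM at day 3, while it had 343, 371 and 419 CPM at day 1 and 157, 190.3 and 88.7 CPM at day 4. Its change from day 1 to day 4 was -1.38 (SE 0.21), although it had first increased. Dnmt3b had 1429.6 ± 182 CPM at day 2 and 586 and 584 CPM at days 1 and 4. Dnmt3l, their catalytically inactive cofactor, decreased from 1122, 1178 and 1192 CPM to 297, 319 and 149 CPM (log2 change -2.19, SE 0.21). Uhrf1, which recruits Dnmt1 to hemimethylated DNA, fell by 1.59 on the log2 scale, Tet1 by 1.67 and Tet2, another 5-methylcytosine dioxygenase, by 3.38. Over the 8 members 6 fell, Dnmt1 among them (-0.51), Tet3 rose (0.35) and Dnmt3b was not called, with a median of -1.48. No member rose in the fits without replicate 2 or 3 of day 1 or replicate 1 of day 4.

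Genes that respond to Lif and to FGF, the signals exchanged at the exit from 2i/Lif, were split. Their counts stand beside 29.1% of all tested genes that rose and 30.3% that fell. Of 10 targets and components of the Lif-Stat3 pathway 3 rose and 5 fell (median -0.35). Gbx2, a homeobox target of Stat3, had 70.8, 54.7 and 48.6 CPM at day 1 and 0.719, 0.699 and 0.30 CPM at day 4, which was among the largest decreases of all genes (log2 change -6.64, SE 0.36). The receptor Lifr fell by 2.81 on the log2 scale, Junb rose by 2.22, Pim1 by 0.42 and Stat3 by 0.57, and the feedback inhibitor Socs3 was not called (-0.13). The call of Pim1 did not hold without day 1 replicate 2 or day 4 replicate 1 (adjusted p = 0.085 and 0.086). Of 16 feedback inhibitors and targets of the ERK pathway 5 rose, 7 fell and 4 were not called (median -0.17). Spry4, an inhibitor of receptor tyrosine kinase signaling, fell by 2.59, Etv4 by 1.75, Myc by 1.64 and the phosphatase gene Dusp4 by 0.86, while the immediate early gene Egr1 rose by 2.81. Spred1 (0.58), Fos (1.37), Fosl1 (1.33) and Ier3 (1.63) were the other genes that rose, and Dusp6, Dusp5, Spry1 and Spry2 were not called.

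Of 15 tested primitive streak and mesendoderm genes 10 rose, 2 fell and 3 were not called, with a median log2 change of 4.01. Wnt3, the ligand that initiates the streak, had 0.0942, 0.138 and 0.155 CPM at day 1 and 26.2, 19 and 44.6 CPM at day 4. Fgf8, needed for cells to migrate away from the streak, went from 0.314, 0.322 and 0.194 CPM to 52.0, 28.1 and 59.3 CPM. In both genes each day 4 library lay far above each day 1 library, and the log2 changes were 7.85 (SE 0.47) and 7.37 (SE 0.50). T (Brachyury), the T-box factor of the streak, had 0.126, 0.230 and 0.466 CPM at day 1 and 18.6, 11.4 and 90.7 CPM at day 4 (log2 change 7.22, SE 0.71, adjusted p = 1.4e-09). Replicate 3 was by far the highest library for T at day 4, as it was for Mixl1, a homeobox gene of mesendoderm, with 3.94, 2.66 and 26.3 CPM, and for Foxa2, the forkhead factor of anterior streak and endoderm, with 3.11, 2.49 and 14.7 CPM. Mixl1 and Foxa2 rose by 5.30 and 4.60 on the log2 scale. Eomes had 37.9, 40.3 and 47.4 CPM at day 1 and 49.2, 44.3 and 68.9 CPM at day 4 and was not called (log2 change 0.37, adjusted p = 0.088). The 2 members that fell were Mesp2 (-1.20) and Cdx4 (-4.17), and besides Eomes also Evx1 and Cdx1 were not called. The summed level of the list was 54.2, 53.9 and 63.4 CPM at day 1 and 194, 137 and 366 CPM at day 4.

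The changes of Wnt3 and T fell into different steps. Wnt3 stood at 5.65 ± 1.75 CPM on day 2, 14.7 ± 4.76 CPM on day 3 and 29.9 CPM on day 4, whereas T was at 0.605 ± 0.454, 2.80 ± 1.37 and 40.3 CPM. Genes of the Nodal pathway were higher in 7 of 9 cases (median 1.39). Nodal itself, a ligand of the TGF-beta family, rose by 0.86 on the log2 scale. Lefty1, its secreted antagonist, had 8.04, 8.38 and 8.47 CPM at day 1 and 208, 123 and 172 CPM at day 4, 20.2-fold more (log2 change 4.34, SE 0.47). It had already reached 96.1 ± 39.9 CPM at day 2. Lefty2 rose by 2.05 and the antagonist Cer1 by 3.46. The coreceptor gene Tdgf1 fell by 0.37 and Smad7 was not called.

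Wnt target genes rose in 7 of 12 cases (median 0.92), among them the transcription factor gene Sp5 with a log2 change of 6.91 and Rnf43, which removes Frizzled receptors, with 5.59. Axin2, the most widely used target, was not called (0.18), nor was Cdx1. Notum, which inactivates Wnt ligands, fell by 3.37, Lef1 by 2.65 and Bambi by 0.80. Most targets and inhibitors of BMP signaling moved the other way, with 8 of 14 lower, 4 higher and a median of -0.85. Id1 and Id2, the immediate transcriptional targets, fell by 2.21 and 1.02 on the log2 scale and Smad9 by 2.88. The 4 members that rose were the ligands Bmp7 (4.76) and Bmp2 (3.52), the homeobox gene Msx2 (3.20) and the antagonist Nog (2.42), and Smad7 and Msx1 were not called.

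**Figure D2:**
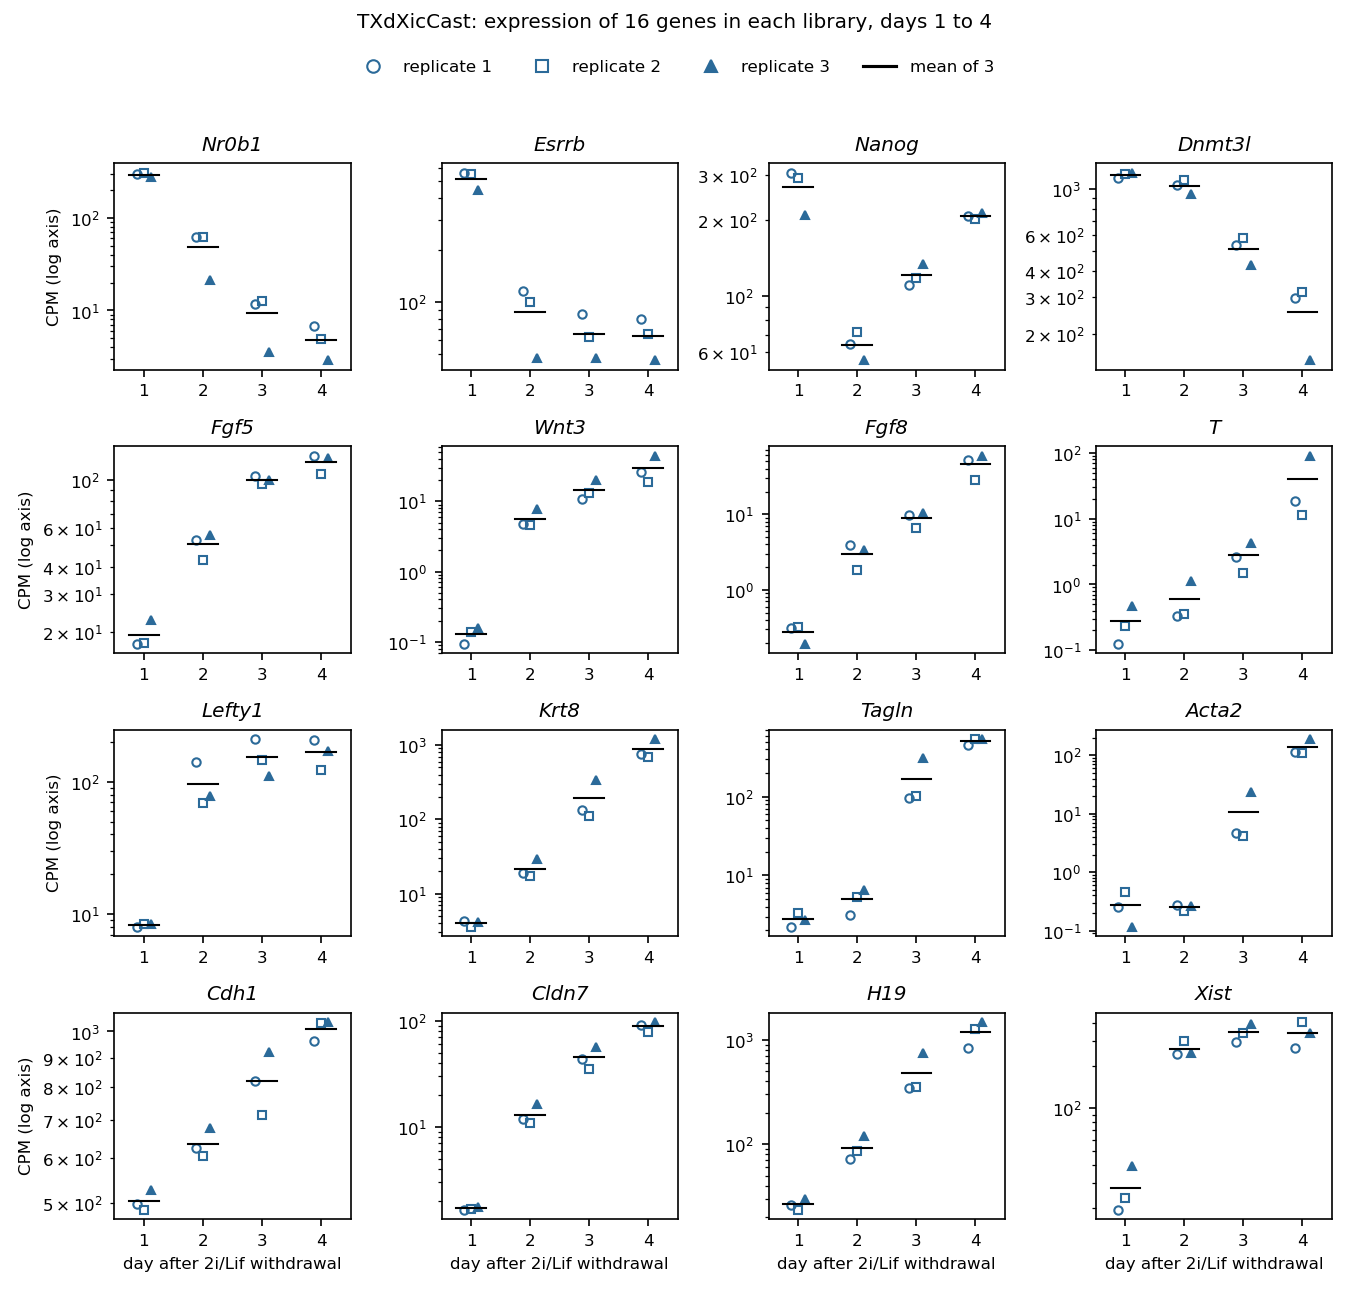
CPM of 16 genes in each TXdXicCast library at days 1 to 4, on a log axis, with a bar at the mean of 3 replicates. Nr0b1 and Esrrb decline, Nanog dips at day 2 and returns to 206 CPM at day 4, and Krt8, Acta2 and T rise mostly after day 2.

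Of 19 tested members of the smooth muscle and actin cytoskeleton list 16 rose and 3 were not called (Cnn3, Mylk and Srf), with a median log2 change of 2.02. Acta2, smooth muscle alpha-actin (chr19:34241090-34255590), had 0.251, 0.460 and 0.117 CPM at day 1 and 115, 111 and 190.2 CPM at day 4, a log2 change of 9.00 (SE 0.62, adjusted p = 1.2e-12). Tagln (SM22-alpha), an actin cross-linking protein, had 2.23, 3.36 and 2.68 CPM at day 1 and 455, 542 and 544 CPM at day 4 (log2 change 7.56, SE 0.41). Day 2 lay close to day 1 for both, with 0.253 ± 0.0294 CPM of Acta2 and 4.98 ± 1.73 CPM of Tagln, and day 3 was in between with 10.8 ± 11.0 and 169.5 ± 122 CPM. The spread at day 3 was as large as the mean for Acta2. Cnn1 and Tpm2, calponin and beta-tropomyosin, rose by 5.08 and 3.85. The summed level of the list was 2723, 2875 and 2739 CPM at day 1 and 7949, 8392 and 8526 CPM at day 4, with Flna as the most abundant gene. Several members bind actin in most cell types, and the list does not identify smooth muscle cells.

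Many contractile genes carry the CArG box, the binding motif of serum response factor (SRF), close to their start. The 250 bases upstream of the start were searched for this motif in the RefSeq promoters (GRCm38.p6, the assembly also called mm10). The motif reads as itself on the other strand, so that both strands were covered. Tagln and Actg2 were not matched, and the other 18 symbols of the list had 20 promoters. The motif was found in 4 of these 20 promoters (20.0%) and in 482 of all 32851 promoters (1.47%), a description of letters only. The 4 promoters are shown 5′ to 3′ on the strand of the gene, with the motif in capitals. Of their genes, Myl9, Cnn2 and Vcl were called and Srf was not.
Myl9: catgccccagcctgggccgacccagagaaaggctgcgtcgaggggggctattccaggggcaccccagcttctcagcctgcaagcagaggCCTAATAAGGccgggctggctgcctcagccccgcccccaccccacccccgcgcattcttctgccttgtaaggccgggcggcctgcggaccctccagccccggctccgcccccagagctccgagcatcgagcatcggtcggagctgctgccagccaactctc
Cnn2: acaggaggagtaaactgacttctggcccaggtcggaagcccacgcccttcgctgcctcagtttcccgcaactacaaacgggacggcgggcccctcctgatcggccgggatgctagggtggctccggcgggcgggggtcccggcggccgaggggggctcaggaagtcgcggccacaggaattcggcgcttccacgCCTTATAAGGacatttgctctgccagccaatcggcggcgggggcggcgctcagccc
Vcl: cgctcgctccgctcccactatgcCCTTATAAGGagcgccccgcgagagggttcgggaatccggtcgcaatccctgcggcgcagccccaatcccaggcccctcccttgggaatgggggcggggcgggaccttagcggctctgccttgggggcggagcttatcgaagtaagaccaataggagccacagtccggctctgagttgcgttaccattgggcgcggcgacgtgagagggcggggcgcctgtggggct
Srf: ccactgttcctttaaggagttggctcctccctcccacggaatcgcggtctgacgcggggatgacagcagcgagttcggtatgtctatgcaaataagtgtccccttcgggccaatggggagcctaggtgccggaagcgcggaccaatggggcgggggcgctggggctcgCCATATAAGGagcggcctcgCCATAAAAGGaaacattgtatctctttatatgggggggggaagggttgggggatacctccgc
The windows are chr2:156775214-156775463 (plus strand) for Myl9, chr10:79988350-79988599 (plus) for Cnn2, chr14:20929148-20929397 (plus) for Vcl and chr17:46556163-46556412 (minus) for Srf. The motif began 161 bases before the start of Myl9, 56 before that of Cnn2, 227 before that of Vcl, and 82 and 62 before that of Srf. Myl9, the regulatory light chain of smooth muscle myosin, had 3.48, 3.64 and 3.85 CPM at day 1 and 29.5, 35.2 and 20.9 CPM at day 4 (log2 change 2.96, SE 0.31). Cnn2, a calponin, went from 36.3, 44.1 and 42.9 CPM to 271, 290.2 and 281 CPM (2.77, SE 0.22), and Vcl, vinculin of focal adhesions, from 172, 186 and 188 CPM to 397, 415 and 348 CPM (1.08, SE 0.15). These 3 genes were separated by day in every library. Srf, the gene of the factor itself, had 72.7, 56.0 and 55.8 CPM at day 1 and 99.2, 86.7 and 51.5 CPM at day 4, with overlapping libraries and no call (0.36, adjusted p = 0.097).

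Targets of the coactivator YAP rose in 9 of 12 cases (median 1.35). Ankrd1 had no counts in any of the 3 day 1 libraries and 361 counts over day 4, at least 86.3-fold higher when 3 counts over the libraries of day 1 are taken as the floor. The secreted factor Tgfb2 rose by 4.10 on the log2 scale, the adhesive glycoprotein Thbs1 by 3.02 and the receptor kinase Axl by 2.05. Of the 2 matricellular proteins at the head of the list, Ccn1 rose by 1.09 and Ccn2 fell by 1.61. Ajuba fell by 0.40 and Lats2 was not called.

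Cdh1, the gene of the epithelial junction protein E-cadherin, had 498, 487 and 528 CPM at day 1 and 961, 1035 and 1039 CPM at day 4, and thus 2.01-fold more (log2 change 1.00, SE 0.09). The claudins Cldn7 and Cldn6 of tight junctions rose by 5.72 and 3.87 on the log2 scale, and Cldn1, with no counts at day 1 and 515 at day 4, was at least 123-fold higher. Cdh2, N-cadherin, had 6.31, 4.93 and 7.46 CPM at day 1 and 5.49, 4.24 and 6.47 CPM at day 4 and was not called. Zeb1, a repressor of Cdh1, had 36.7, 38.9 and 34.5 CPM at day 1 and 4.61, 4.94 and 2.70 CPM at day 4 (log2 change -3.17, SE 0.19), while Zeb2 rose by 2.87. Over the cadherin and mesenchymal list 11 of 18 members rose and 4 fell (Snai2, Zeb1, Fn1 and Grhl2), with a median of 0.88. Cdh2, Vim and Snai1 were not called.

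Collagens and basement membrane components changed in composition. Of 16 tested collagens 10 rose and 3 fell (median 1.77). Col6a2 (log2 change 6.45), Col5a2 (4.96), Col12a1 (4.37) and Col6a1 (3.94) rose most among those with sufficient counts, and Col5a3, Col6a3 and Col13a1 fell. Col1a1, a chain of fibrillar collagen I, rose by 2.17 and its partner Col1a2 was not called (0.27), nor were Col18a1 and Col2a1. In the parietal endoderm and basement membrane list 6 of 12 rose and 4 fell (median 0.40), against 29.1% and 30.3% of all tested genes. The laminin chain Lamb1 rose by 2.15, the collagen IV chain Col4a2 by 1.91, the protease Plat by 2.85 and the collagen chaperone Serpinh1 by 1.95. Lama1 fell by 1.82, Nid1 by 1.91, Lamc1 by 0.83 and Nid2 by 0.37, and Sparc and Thbd were not called.

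The keratin genes Krt8, Krt18 and Krt7 rose. Krt8, a type II keratin of simple epithelia (chr15:101996698-102004482), had 4.30, 3.59 and 4.20 CPM at day 1 and 755, 698 and 1210.2 CPM at day 4, 219-fold more (log2 change 7.78, SE 0.38, adjusted p = 1.7e-15). Its partner Krt18 went from 11.1, 10.1 and 14.2 CPM to 655, 625 and 1026 CPM (6.02, SE 0.33). All libraries of day 4 lay above those of day 1, and replicate 3 was the highest for both genes. The log2 change of Krt7 was 7.28. These keratins are part of the trophoblast list, in which 10 of 16 tested members rose, 2 fell and 4 were not called (median 2.04). Hand1 and Plac1, which are also used as placental markers, rose by 4.17 and 5.84, and Cdx2 by 2.19 to 1.22 CPM. The call of Elf5, a trophoblast stem cell factor (log2 change 1.42), did not hold without any of the 3 day 1 replicates or without day 4 replicate 2 or 3 (adjusted p between 0.056 and 0.2). Gata3 and Tead4 fell, by 1.08 and 1.05, and Eomes, Tfap2a, Ascl2 and Peg10 were not called. Prl3d1, a hormone of trophoblast giant cells, had 0 counts in all 6 libraries. The summed level of the list was 3286, 3248 and 3124 CPM at day 1 and 4687, 4262 and 7018 CPM at day 4, mostly from Peg10, and the part of other cell types in the increase of these keratins was not tested.

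Markers of other lineages gave no common direction. Of 18 tested neural genes 7 rose and 8 fell (median 0.19), with 155, 159 and 149 CPM in sum at day 1 and 242, 288 and 195 CPM at day 4, and Nes as the most abundant. Nes, an intermediate filament of progenitors, rose by 2.69 and the zinc finger factor Zic1 by 4.25 to 1.50 CPM, whereas the neural plate factors Sox1 and Pax6 fell by 1.64 and 1.94 and En2 by 3.41. Tubb3 and Dcx were among those not called. In definitive and visceral endoderm 5 of 14 rose and 7 fell (median -0.38), and Ttr, a secreted protein of visceral endoderm, had 0 counts. Gata4, Foxa2 and Apob rose by 2.20, 4.60 and 2.97, together with Foxa1 (1.73) and Dab2 (2.16), while Hnf4a fell by 5.25 and Sox17 by 1.27. The call of Sox17 did not hold without replicate 2 of day 1 (adjusted p = 0.052) or of day 4 (0.11). The endoderm list summed to 258, 313 and 354 CPM at day 1 and 131, 144 and 161 CPM at day 4, with Rhox5 as the most abundant. Of 19 mesoderm and cardiovascular genes 6 were higher and 6 lower (median 0.42), shares close to the 29.1% and 30.3% of all tested genes. Gata2, a hematopoietic and endothelial factor, rose by 3.64, Hand1 by 4.17 and the receptor Pdgfra by 2.41. Kdr, the VEGF receptor of hemangioblasts, fell by 3.38 and the somite factor Meox1 by 6.61. Their summed level was 152, 159.5 and 133 CPM at day 1 and 78.1, 72.6 and 79.1 CPM at day 4, mostly from Pecam1.

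Germline genes fell in 11 of 20 cases and rose in 6 (median -1.91). Dazl, an RNA-binding protein of germ cells, fell by 4.42 on the log2 scale, Piwil2 of the piRNA pathway by 3.08 and Tuba3a, a testis tubulin, by 3.26. Rhox9 rose by 3.60, and Ddx4 by 0.56, a call that did not hold without replicate 2 of day 1 or of day 4 (adjusted p = 0.075 and 0.094). Mael, Nanos3 and Taf7l were not called. The list summed to 583, 622 and 719.8 CPM at day 1 and 267, 305 and 284 CPM at day 4, mostly from Rhox5. Genes of the two-cell-like state rose in 8 of 9 tested cases (median 3.78), but their summed level remained low, at 0.628, 0.368 and 0.311 CPM at day 1 and 5.42, 6.86 and 3.77 CPM at day 4. Zscan4a was the most abundant of them. The Zscan4 members are close copies of each other, as are Tcstv1 and Tcstv3, so that the assignment of reads within these families is uncertain. Tcstv1 was not called. Zscan4b had 2 counts over the libraries of day 1 and 73 over those of day 4, a ratio of 26.2 (95% exact interval 6.99 to 220, counting error only). Of 32 tested Hox genes 11 fell, 3 rose and 18 were not called (median -0.68). The share that fell was close to the 30.3% of all tested genes, of which 29.1% rose. The summed level of the Hox genes was 21.4, 18.9 and 17.3 CPM at day 1 and 11.6, 11.1 and 15.7 CPM at day 4. Hoxc13, the most abundant, had a log2 change of -0.67, which did not pass with DESeq2 (adjusted p = 0.051) or without a single library other than day 1 replicate 3 (0.068 to 0.22), and Hoxd13 fell by 1.35. Hoxb9 (1.12), Hoxc9 (1.72) and Hoxd1 (2.13) rose, and Hoxb9 did not pass without day 4 replicate 3 (adjusted p = 0.066). Hoxb6 had 0 counts.

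**Figure D3:**
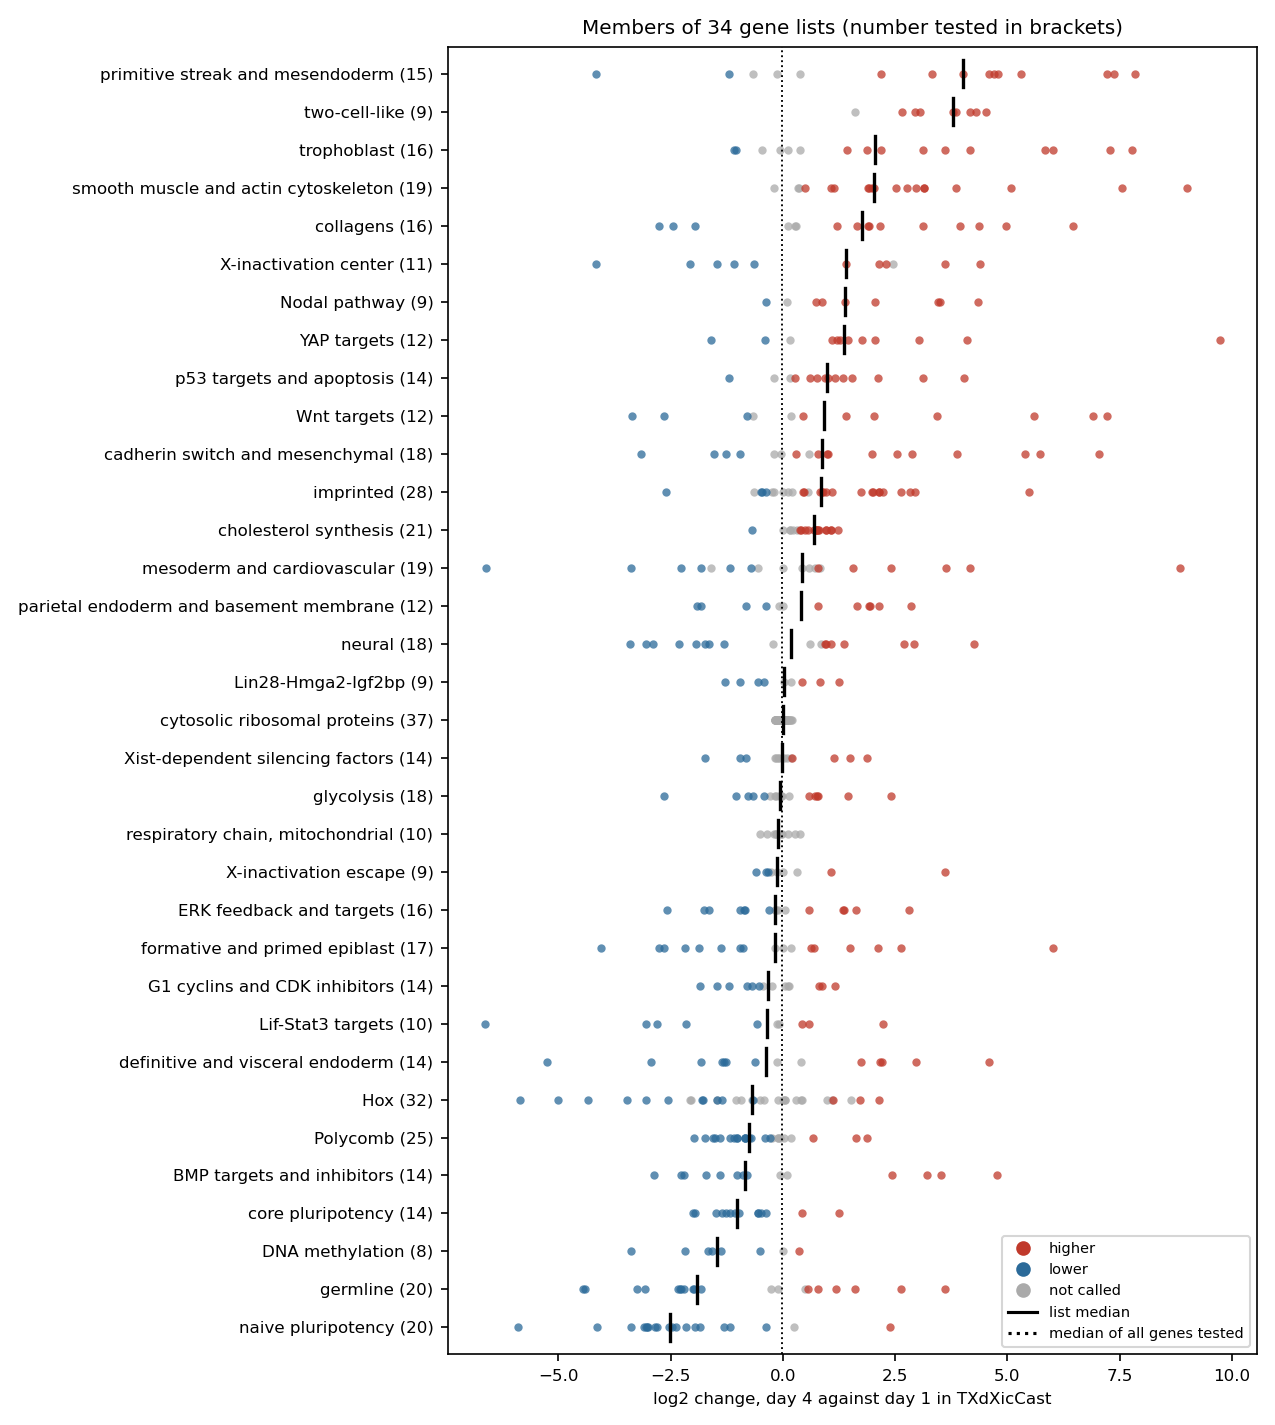
Log2 change from day 1 to day 4 of the tested members of 34 gene lists, 1 point per gene (red higher, blue lower, gray not called), with a bar at the list's median and a dotted line at that of all tested genes. The naive list centers at -2.51 and the primitive streak list at 4.01, while ribosomal protein genes lie between -0.18 and 0.21.

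Of 14 G1 cyclins and CDK inhibitors 6 fell, 3 rose and 5 were not called (median -0.34), while 30.3% of all tested genes fell and 29.1% rose. Ccnd3 and Ccnd1, D-type cyclins that activate CDK4 and CDK6, fell by 1.84 and 1.20 on the log2 scale, Ccne1 by 1.46 and Ccnd2 by 0.81, the latter not without day 4 replicate 3 (adjusted p = 0.077). Cdkn1a (p21) rose by 1.17, Cdkn1b by 0.81 and Cdkn2b by 0.88, and Ccne2, Cdkn1c, Cdkn2a, Cdkn2d and Cdk6 were not called. Targets of p53, to which Cdkn1a belongs, rose in 11 of 14 cases (median 0.98). Perp, a desmosomal tetraspan protein, had 4.46, 5.48 and 5.4 CPM at day 1 and 65.1, 69.2 and 116 CPM at day 4 (log2 change 4.03, SE 0.29). The death receptor Fas rose by 3.13, the antiproliferative gene Btg2 by 2.12, Phlda3, an Akt inhibitor, by 1.53 and the ubiquitin ligase Mdm2 by 0.61. Sesn1 fell by 1.21, and Bax and Sesn2 were not called.

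Cholesterol synthesis genes rose in 15 of 21 cases, by small amounts (median 0.69, highest 1.22). Hmgcs1, an entry enzyme of the mevalonate pathway, rose by 1.06, Hsd17b7 by 1.22, Sc5d by 1.08 and Lss by 0.96. Ebp fell by 0.70, and Mvk, Sqle, Nsdhl and Insig1 were among those not called. Of 18 glycolysis genes 6 were higher and 5 lower (median -0.06), shares close to the 29.1% and 30.3% of all tested genes. Slc2a3, the neuronal-type glucose transporter, had 449, 478 and 373 CPM at day 1 and 1875, 1782 and 3241 CPM at day 4 (log2 change 2.41, SE 0.19), Hk1 rose by 0.76 and Eno2 by 1.44. The isozymes Hk2 and Pfkp fell by 1.04 and 2.64, together with Pfkm (-0.66), Aldoa (-0.77) and Pgam1 (-0.43). None of the 37 cytosolic ribosomal protein genes was called by edgeR or DESeq2 and 0 had an unadjusted p under 0.05, with log2 changes between -0.18 and 0.21 and a median of -0.01 (Rpl3 at 0.02, Rpl4 at -0.10), and 1 was lower without day 4 replicate 1. The same held for the 10 tested genes of the mitochondrial respiratory chain, with a median of -0.10, mt-Nd1 at -0.35 and mt-Nd2 at -0.16, although mt-Nd1 passed in the fits without a filter on low counts (adjusted p = 0.02) and with the libraries of days 1 and 4 alone (0.031).

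Polycomb genes were lower in 16 of 25 cases and higher in 3 (median -0.76). Of the Polycomb repressive complex 2, which methylates histone H3 lysine 27, Eed fell by 1.40 and its cofactor Jarid2 by 1.73, while Ezh1 was not called (-0.24). Kdm2b, which targets Polycomb repressive complex 1 to CpG islands, fell by 1.98. Pcgf5 and Yaf2, subunits of noncanonical Polycomb repressive complex 1, rose by 1.88 and 1.63, together with Rbbp7 (0.68). The Lin28, Hmga2 and Igf2bp group was split with 3 higher and 4 lower of 9 (median 0.02), against 29.1% and 30.3% of all tested genes. Hmga2, an architectural chromatin protein, fell by 1.29, Igf2bp2 by 0.95, Igf2bp1 by 0.43 and Trim71 by 0.55, whereas Igf2bp3 rose by 0.83, and Hmga1 and Arid3b were not called. Imprinted genes rose in 17 of 28 cases and fell in 4 (median 0.85). H19, a maternally expressed noncoding RNA, had 26.3, 23.5 and 29.8 CPM at day 1 and 832, 1272 and 1484 CPM at day 4 (log2 change 5.49, SE 0.47). Its neighbor Igf2, a paternally expressed growth factor, went from 9.29, 7.37 and 7.19 CPM to 39.5, 49.1 and 95.2 CPM (2.94, SE 0.30). In both genes every library of day 4 was above every library of day 1. Nnat rose by 2.82 and Airn, the antisense RNA of Igf2r, by 2.63, and Slc22a18, Mkrn3, Mest and Zrsr1 fell.

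The genes with the largest changes among those with at least 100 counts on average and no overlap between days included both cytoskeletal and little-studied genes. Besides Acta2, Ankrd1 and Cldn1, Ccdc80, a secreted matrix protein, had no counts at day 1 and 343 at day 4 and was at least 82-fold higher. Actc1, cardiac actin, had 1 count over day 1 and 878 over day 4 (ratio 630, 95% exact interval 113 to 2.49e+04), and Fam83b had 2 and 991 (ratio 356, 98.2 to 2.94e+03). These intervals cover counting error only. Acta1, skeletal actin, went from 0, 0.0921 and 0.0777 CPM to 16.1, 13.4 and 25.6 CPM (log2 change 8.39, SE 0.76). Krt8-ps, a pseudogene of Krt8, was also in this group and may hold reads of Krt8. It had 1 and 672 counts (ratio 482, 95% exact interval 86.2 to 1.91e+04, counting error only). Among the largest decreases, Halr1, a noncoding RNA next to the Hoxa cluster, fell from 21.4, 21.2 and 19.7 CPM to 0.111, 0.131 and 0 CPM (-7.93, SE 0.46). Pramel6, a PRAME family gene of naive cells, fell by 7.11, Dgkeos by 7.91, the steroid dehydrogenase gene Hsd11b1 by 6.68, and the X-linked melanoma antigen family members Magea8 and Magea5 by 7.13 and 6.84. Dcaf8l (X-linked) had 321 counts over day 1 and 1 over day 4 (ratio 447, 79.7 to 1.77e+04). Members of the Magea and PRAME families are close paralogs, which makes their counts less certain.

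On the X chromosome, Xist (chrX:103460366-103483254, minus strand) had 19.4, 23.4 and 39.6 CPM at day 1 and 267, 405 and 339 CPM at day 4. This was a 12.3-fold increase (log2 change 3.62, SE 0.33, adjusted p = 3.4e-10), and the level was 261 ± 32.2 CPM at day 2 and 342 ± 49.8 CPM at day 3, so that most of it lay in the first step. Of the allele-specific Xist counts of day 4, 6458, 3735 and 4676 were from B6 and 4, 7 and 1 from Cast. Over the other genes of the deleted interval, without Xist, the Cast allele gave 2, 2 and 4 counts at day 1 and 6, 7 and 13 at day 4, against 878, 531 and 619 and then 1422, 579 and 774 counts from B6. Tsix, the antisense repressor of Xist, had 8.47, 6.17 and 6.41 CPM at day 1 and 4.46, 4.85 and 4.19 CPM at day 4 (log2 change -0.65, adjusted p = 0.023). Tsix overlaps Xist, and how strand was treated in counting is not given in the sources used here, so that reads of the 2 genes cannot be told apart. The call of Tsix did not hold without replicate 1 of either day or without day 4 replicate 3 (adjusted p between 0.053 and 0.16). Of 11 tested genes of the Xic 5 rose and 5 fell (median 1.41), against 29.1% and 30.3% of all tested genes. Rlim (Rnf12), a ubiquitin ligase that activates Xist and lies just outside the deletion, rose from 412, 478 and 489 CPM to 1107, 1244 and 1316 CPM (1.41, SE 0.15). The noncoding RNA genes Jpx and Ftx rose by 2.29 and 2.15, while Chic1, Cdx4, Tsx and Nap1l2 fell and Zcchc13 was not called.

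X-linked genes outside the deleted interval fell in 269 of 740 cases (36.4%) and rose in 221 (29.9%), with a median log2 change of -0.09. Autosomal genes fell in 5747 of 19092 cases (30.1%) and rose in 5564 (29.1%), with a median of -0.01. On the B6 X, which carries Xist, allele-specific X counts were 3.19, 3.21 and 3.19 per 100 autosomal counts of the same allele at day 1 and 2.63, 2.64 and 2.72 at day 4. On the Cast X, which lacks the Xic, this measure went from 3.37, 3.42 and 3.39 to 4.32, 4.47 and 4.64, again without overlap between days. The B6 share of X-linked allele-specific counts accordingly went from 49.5% ± 0.146 to 38.2% ± 0.435 (SD, n = 3), without overlap (exact permutation test, two-sided p = 0.1, the smallest p that 3 against 3 allows). When the exact permutation test used replicate numbers as blocks, p was 0.25, again the smallest possible. The autosomal B6 share was 50.9% to 51.0% in these 6 libraries. Most of the decline was complete by day 3, with shares of 42.9%, 42.7% and 41.1% at day 2 and 39.3%, 39.5% and 39.2% at day 3. Of 502 X-linked genes outside the deletion with at least 50 allele-specific counts over the 6 libraries and counts on both days, the B6 share was lower at day 4 in 446 and higher in 49, and the median share was 49.9% at day 1 and 37.9% at day 4. Genes known to escape X inactivation gave 2 increases (Xist and Mid1) and 3 decreases (Kdm5c, Eif2s3x and Utp14a) among 9 (median -0.13), and Kdm6a had a log2 change of -0.01. Of 14 factors of Xist-dependent silencing 4 rose and 3 fell (median -0.02). Over all tested genes 29.1% rose and 30.3% fell. Smchd1, which maintains the inactive X, rose by 1.13, Ciz1, which anchors Xist, by 1.49 and Lbr by 0.20, besides Pcgf5, while Spen, which binds the A-repeat of Xist, fell by 0.82, and Jarid2 and Aebp2 fell as well. The call of Lbr did not hold without a filter on low counts or without day 1 replicate 2 (adjusted p = 0.18 and 0.078).

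**Figure D4:**
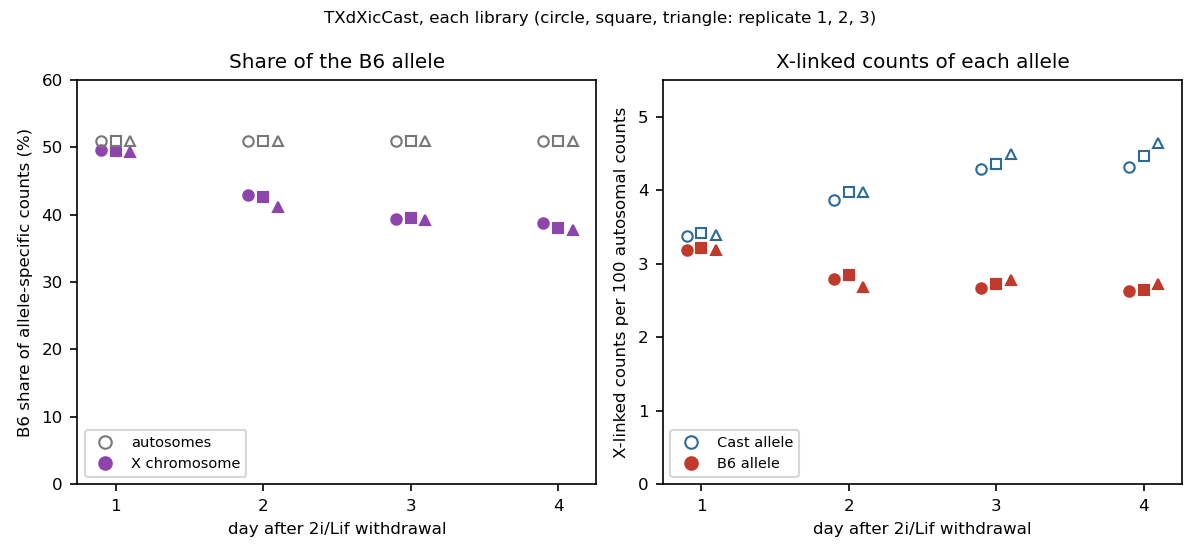
Allele-specific counts in the TXdXicCast libraries of days 1 to 4, shown as the B6 share of X-linked and autosomal counts in percent and as X-linked counts per 100 autosomal counts of the same allele. The X-linked B6 share goes from about 49.5% at day 1 to 38.2% at day 4, while the autosomal share stays at 50.9% to 51.0%.

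To see how far these changes were shared with other lines, the same days were compared in TXdXicB6 and TX1072. In TXdXicB6 11272 of 19885 genes were called (56.7%), 5491 higher (27.6%) and 5781 lower (29.1%). Of the genes that rose in TXdXicCast 4738 also rose in TXdXicB6 (81.8% of the former and 86.3% of the latter), and 23 fell. Of those that fell in TXdXicCast 4977 fell in both (82.6% and 86.1%), and 2 rose in TXdXicB6 (Gm24610 and Unc80). In TX1072, whose RNA was prepared with another kit and counted in a separate table, 11194 of 18871 genes were called (59.3%), 5472 higher (29.0%) and 5722 lower (30.3%). Of the 18382 genes tested in both tables, 4763 rose in TXdXicCast and TX1072 (87.4% and 87.6%) and 3 rose in TXdXicCast and fell in TX1072 (Gm48602, Gm5576 and P2rx3). Both lines shared 4888 lowered genes (84.0% and 86.4%), and 0 genes that fell in TXdXicCast rose in TX1072 by edgeR (2 at an unadjusted p under 0.05, Ak4 and Eif1).

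The difference between the changes of the 2 deletion lines passed the interaction test for 154 genes (0.774%), 135 with a larger value in TXdXicCast (0.679%) and 19 with a smaller one (0.0955%). With a replicate block the number was 447. For the 135 genes the median log2 change was 0.77 in TXdXicCast, with 87 genes higher and 23 lower, and -0.46 in TXdXicB6, with 32 higher and 71 lower. Day 4 replicate 3 of TXdXicCast was the highest of the 3 libraries of day 4 in 126 of the 135 genes. Without this library 25 genes were called, all of them among the 154, and all 154 kept the sign of the difference. Without day 1 replicate 3 the number was 31, and 73 and 88 without replicates 1 and 2 of day 1. Of the 740 X-linked genes outside the deletion 23 had a larger and 0 a smaller value in TXdXicCast by edgeR (3.11%), and the median difference was 0.20. At an unadjusted p under 0.05 the numbers were 143 and 30, and DESeq2 called 45 and 2 (Pim2 and Rragb). Of 19092 autosomal genes 130 were called, 112 with a larger and 18 with a smaller value, and the median difference was -0.01. The lines differ in their clone and in the inducible Xist allele as well as in the X that carries the deletion, and these cannot be told apart.

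The 6 genes with the smallest adjusted p of the interaction all had the larger signed log2 change in TXdXicCast. Scml2 (chrX:161117193-161258213), a Polycomb-associated protein, had 7.72, 8.52 and 8.82 CPM at day 1 and 10.8, 11.8 and 20.4 CPM at day 4 in TXdXicCast, against 14.7, 13.1 and 15.2 CPM and then 6.71, 6.58 and 6.81 CPM in TXdXicB6. It rose in one line (log2 change 0.78) and fell in the other (-1.10), and the difference was 1.88 (SE 0.25, adjusted p = 0.00061). Efnb1 (chrX:99136130-99148991), the ligand ephrin-B1, went from 3.89, 3.27 and 3.07 CPM to 49.8, 36.7 and 79.3 CPM in TXdXicCast and from 4.74, 4.68 and 3.71 CPM to 17.6, 19.8 and 13.3 CPM in TXdXicB6. It rose in both lines, by 4.01 and 1.95, with a difference of 2.06 (SE 0.31). The other 4 genes are autosomal. Pramef12, a PRAME family gene, had 36.3, 39.2 and 35.4 CPM and then 86.4, 83.8 and 126 CPM in TXdXicCast, whereas TXdXicB6 had 43.1, 47.9 and 38.4 CPM and then 47.5, 38.9 and 43.8 CPM, overlapping (difference 1.41, SE 0.19). Anxa6, a calcium-dependent membrane-binding annexin, rose from 64.4, 66.3 and 62.6 CPM to 110.3, 122 and 127 CPM in TXdXicCast and had 71.0, 76.7 and 67.7 CPM and then 67.5, 73.8 and 61.0 CPM in TXdXicB6 (0.98, SE 0.16). She, an SH2 domain adaptor, and Rab11fip5, an effector of Rab11 in recycling endosomes, rose in TXdXicCast by 0.71 and 0.81 and fell in TXdXicB6 by 0.86 and 0.96. In TX1072 the log2 changes of these genes were 0.74 for Scml2, 4.08 for Efnb1, 0.98 for Pramef12, 0.65 for Anxa6, 0.82 for She and 0.66 for Rab11fip5, without a test against the other table.

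**Figure D5:**
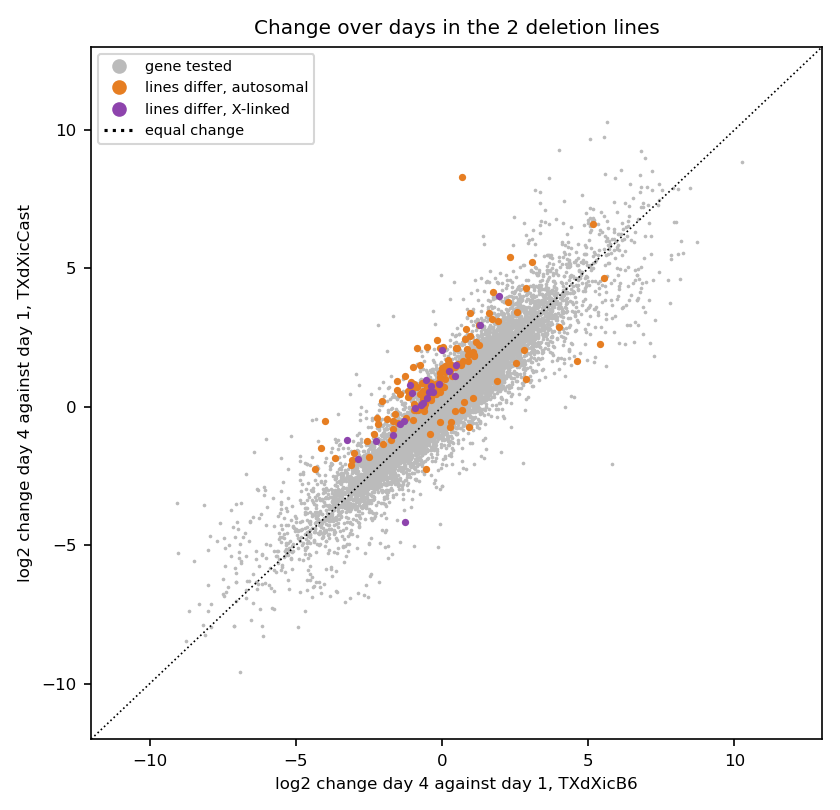
Log2 change from day 1 to day 4 in TXdXicB6 (x axis) and TXdXicCast (y axis), 1 point per tested gene, with the 154 genes that passed the interaction test in orange (autosomal) or purple (X-linked). Of these, 135 lie above the dotted line of equal change, with the larger value in TXdXicCast.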

How the data were processed

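Bulk RNA was sequenced from TXdXicCast and TXdXicB6 after ribosomal RNA depletion, and the authors deposited whole-number read counts per gene, in all and per allele. The submitters' processing notes name STAR 2.5.2b, featureCounts and mm10, and per the methods of the study the reads were aligned to a genome masked at the SNPs between the strains and assigned to alleles with SNPsplit. All 6 libraries hold uncorrected counts with a different total each, between 21539045 and 52089996, of which 30.4% to 33.7% carry an allele. No column was left without a sample (0).

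The counts as deposited were fitted with edgeR 4.0.16 in R 4.3.3 (glmQLFit, glmQLFTest, filterByExpr, TMM factors from autosomal genes, two-sided, Benjamini-Hochberg adjusted p of 0.05) across the 30 libraries of both deletion lines and all days, with 1 group per line and day. TX1072 had its own fit. DESeq2 1.42.0 served as an alternative, besides DESeq2 size factors, TMM factors from all genes, a replicate block, all genes without a low-count filter, leaving out the day 0 libraries, the 6 libraries alone, and each of the 6 libraries left out. Where this leaves a day with 2 libraries, the fit pools the spread over all groups. The scripts were tested on simulated data. Chromosomes and gene coordinates were taken from GENCODE M21 and RefSeq (GRCm38.p6).

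Genes were named by a rule. It takes the 8 largest increases and the 8 largest decreases among called genes whose days do not overlap (mean count of 100 or more in the higher day, leaving out predicted and small RNA symbols), in each of 34 lists the first 2 genes and up to 4 called members with the largest change (mean count of 50 or more), the 6 smallest adjusted p of the interaction, and Xist. Some members of the lists, although counted, are not reported here by name. Other genes were named after their values were seen, as the exceptions of a count or the genes that carry a promoter motif. The comparison, its lists and tests were chosen with earlier results of these data known. The reporting summary of the study states that replicates were differentiated on different days, so replicate numbers may pair the samples. The main fit had no replicate term and did not use this pairing, which entered only as the replicate block among the alternatives. As a check, deviations from the group mean correlated at 0.28, 0.05 and 0.03 between days 1 and 4 for replicates 1 to 3 of TXdXicCast and at 0.27, 0.15 and 0.27 in TXdXicB6. Unlike replicate numbers correlated at -0.16 to 0.09 in TXdXicCast and at -0.24 to -0.00 in TXdXicB6. For replicates 2 and 3 of TXdXicCast the check thus did not bear out the pairing. Each line is a single clone, so p-values measure the spread between differentiations of that clone.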

Additional observations from a re-analysis of the deposited data

Results flagged for a closer look

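The change from day 1 to day 4 differed between TXdXicCast and TXdXicB6 for 18 of the genes named above, by the edgeR interaction test with Benjamini-Hochberg adjustment. The difference of the log2 changes, TXdXicCast minus TXdXicB6, was 1.88 for Scml2, 1.41 for Pramef12, 2.06 for Efnb1, 1.57 for She, 1.78 for Rab11fip5 and 0.98 for Anxa6. For Cdx4, a caudal-type homeobox gene inside the deleted interval, it was -2.91 (SE 0.50, adjusted p = 0.0045). Cdx4 had 3.14, 2.26 and 2.53 CPM at day 1 and 0.184, 0.218 and 0.0300 CPM at day 4 in TXdXicCast, against 3.01, 2.29 and 2.54 CPM and then 1.18, 0.932 and 1.15 CPM in TXdXicB6. It fell in both lines, and all libraries of TXdXicCast at day 4 were below those of TXdXicB6. These 7 genes passed in the main analysis and in all 12 alternatives that gave the interaction, with adjusted p up to 0.0044 for Scml2 and 0.022 for Cdx4.

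For the other 11 genes the call was lost without day 4 replicate 3 of TXdXicCast. For 4 of them, the difference was 2.60 for Nog (adjusted p = 0.012), 2.12 for Col1a1 (0.016), 2.38 for Hoxb9 (0.018) and 1.68 for Igf2 (0.047). Without this library it was 2.41 (adjusted p = 0.058), 1.76 (0.084), 2.00 (0.096) and 1.22 (0.26), in the same direction. Col1a1 also missed the threshold without day 1 replicate 3 (adjusted p = 0.07). Hoxb9 missed it without day 1 replicate 1 or 2 (adjusted p = 0.056 and 0.052), and Igf2 without day 1 replicate 1, 2 or 3 (0.067, 0.11 and 0.13). Nog passed in the other 11 alternatives.

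The remaining 7 are genes that were named after their values were seen. The difference was 0.77 for Sparc (adjusted p = 0.016), 1.17 for Nid1 (0.016), 0.67 for Flna (0.041), 1.07 for Peg10 (0.03), 1.57 for Cdkn2b (0.034), 0.85 for Nsdhl (0.049) and -1.64 for Unc80 (0.03). Without day 4 replicate 3 of TXdXicCast it was 0.69, 1.05, 0.64, 0.84, 1.23, 0.60 and -1.43 in this order, with adjusted p between 0.083 for Sparc and 0.26 for Nsdhl. All 7 also missed the threshold without day 1 replicate 3 (adjusted p between 0.067 and 0.085). Without day 1 replicate 1 or 2, Sparc and Nid1 passed and the other 5 did not (adjusted p between 0.058 and 0.13). Flna missed it without day 4 replicate 2 (0.053), and Nsdhl with TMM factors from all genes (0.052).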

How the results depend on the processing

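The numbers of genes that rose (5446 to 6187) or fell (5241 to 6494) from day 1 to day 4, of X-linked genes that fell (245 to 290), and of genes called from day 1 to 2 (6053 to 8274) and from day 2 to 3 (4887 to 6786) stayed within 1.5 times the values given above in all alternatives. The difference of the X-linked B6 share lay between -12.1 and -11.1 percentage points. From day 3 to 4 the number was 3380 to 5073 in the other settings, and leaving out 1 library gave 1857 (without day 4 replicate 3) to 3716. The number of genes whose change differed between the lines depended most on the analysis, with 354 by DESeq2, 418 without a filter on low counts, 447 with the replicate block and 25 to 224 with 1 library left out. The cause was not tested. The block moved no other of these counts by more than 1.5 times. Of 2326 alternative values for the changes of 179 named genes, 2275 kept direction and call, 30 lost and 7 gained a call, and 14 changed sign. Of 884 counts of list members 872 stayed within 1.5 times. The sign changes concerned genes that were not called in either analysis. With 1 library left out, Axin2 lay between -0.02 and 0.41 (the former without day 4 replicate 3), Dusp6 between -0.16 and 0.03 (the latter without day 4 replicate 3), Socs3 between -0.20 and 0.11 (the latter without day 1 replicate 1), Rpl3 between -0.06 and 0.13 and Kdm6a between -0.05 and 0.06. Kdm6a was at 0.04 with DESeq2 or its size factors, 0.01 without the filter, 0.03 without day 0 and 0.02 with the 6 libraries alone. Scaling with DESeq2 size factors moved the median of all genes from -0.02 to 0.03 and the share of increases among called genes from 49% to 52.1%. Depth limits genes near 0 on either day. Bounds or counting intervals were given for genes with 0 to 3 counts over a day whose fold is reported above. Other fold changes near 0, such as those of Acta1, Acta2 and Wnt3, are fitted values that rest on few counts.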
